A study of Mus musculus with 20 samples.

Results

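The genes described here are 9 genes known from monocytes, namely Ly6c2, Cd44, Fxyd5, Vcan, Fn1, Chil3, Plac8, Samsn1 and Napsa. They were taken by symbol from a table of 33243 genes, and all 9 were among the 16632 genes with enough counts for testing. RNA was measured by bulk sequencing in dural CNS-associated macrophages (dCAMs), the resident macrophages of the cranial dura mater, which had been sorted as CD45int CD11b+ CD206int-high cells from adult Ccr2creERT2/+ R26tdT/tdT mice of both sexes. In this line the tamoxifen-dependent Cre recombinase is made where Ccr2 is active, so that the red fluorescent protein tdTomato (tdT) marks cells that expressed Ccr2 when tamoxifen was given, and their descendants. The tdT- fraction holds all other cells of the gate, including cells of the same origin that were not recombined. All mice, controls included, had first received the CSF1R inhibitor BLZ945, which depletes macrophages, at 200 mg/kg for 7 days, and tamoxifen at 2 mg per day, given with the final BLZ945 dose and repeated 2 and 4 days thereafter. Following 8 weeks of repopulation they were injected with lipopolysaccharide (LPS, a bacterial endotoxin) at 2.5 mg/kg, or with PBS (CTL), and dCAMs were collected after 12 h. Each of the 10 mice gave a tdT- and a tdT+ library, which makes 4 groups of 5: tdT- CTL, tdT+ CTL, tdT- LPS and tdT+ LPS. The CTL mice carry the numbers 174, 175, 177, 178 and 179 and the LPS mice the numbers 54, 56, 59, 60 and 61, and values are given in these orders throughout.

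Classical monocytes leave the bone marrow through CCR2, carry the Ly6C antigen on their surface and enter inflamed tissue, where they lose Ly6C and CCR2 as they become macrophages or dendritic cells. The dura differs from the brain itself in that its macrophages are replaced in part from blood monocytes throughout life. Of the 9 genes, Ly6c2, Cd44 and Fxyd5 encode proteins of the cell surface, Vcan, Fn1 and Chil3 encode secreted or matrix proteins, and Plac8, Samsn1 and Napsa encode proteins that act inside the cell.

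Total counts ranged from 6017650 to 12208203 in the 10 CTL libraries and from 12073566 to 18925908 in the 10 LPS libraries. Genes with at least 10 counts numbered 6671 to 9365 in tdT- CTL libraries, 10024 to 11032 in tdT+ CTL libraries and 10930 to 11987 in LPS libraries, so that the tdT- CTL libraries detected the fewest genes. The gate was checked against 10 markers of border macrophages, among them Mrc1, which encodes CD206, with group means of 1430, 2810, 650 and 1060 CPM (groups in the order tdT- CTL, tdT+ CTL, tdT- LPS, tdT+ LPS) (CPM, the count in 1e+06 counts after TMM scaling). All 10 markers were detected in every group. In bulk RNA, fewer cells of a type and less RNA per cell cannot be told apart, and this holds for each level below. A library with 3 or fewer counts of a gene is described as being at the floor for it.

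Together the 9 genes took 0.0321 to 0.22% of the counts of a library. Fxyd5 was the most abundant of them in every CTL library. The other 8 genes summed to 318 to 1010 CPM (tdT- CTL), 51.3 to 87.6 CPM (tdT+ CTL), 956 to 1510 CPM (tdT- LPS) and 787 to 1190 CPM (tdT+ LPS). The tdT+ CTL group thus lay below the other 3 groups without overlap. Between 3 and 6 of the 9 genes were above the floor in a tdT+ CTL library, against 6 to 9 in a tdT- CTL library and 8 or 9 in an LPS library.

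**Figure D1:**
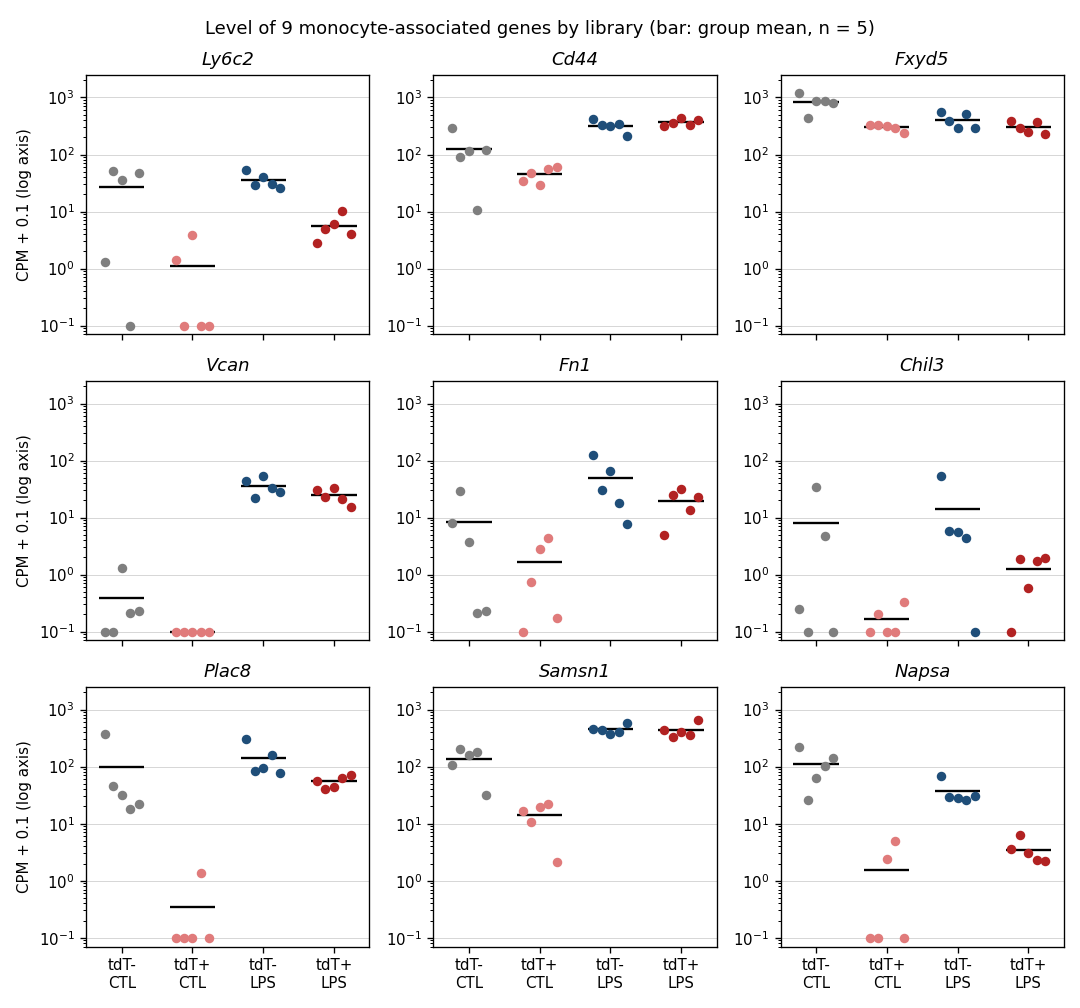
Level of each of the 9 genes in the 20 libraries, as CPM + 0.1 on a log axis, by group. Each point is a library, points run in the order of mouse numbers and the bar is the mean of 5 libraries. The tdT+ CTL libraries (light red) sit lowest for Plac8, Samsn1 and Napsa, and Vcan is near 0 in both CTL groups.

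Ly6c2 (chromosome 15, 75108158 to 75111970, minus strand, GRCm38), which encodes a GPI-anchored form of the Ly6C antigen, gave 8, 471, 292, 0 and 356 counts in the tdT- CTL libraries. In the tdT+ CTL libraries of the same mice it gave 8, 0, 33, 0 and 0 counts. The tdT- CTL libraries thus fell into 3 with at least 292 counts and 2, from mice 174 and 178, with at most 8. After LPS, the tdT- libraries held 750, 391, 660, 370 and 318 counts and the tdT+ libraries 36, 59, 84, 128 and 70. Every LPS library had Ly6c2 above the floor, and each tdT+ LPS library lay below each tdT- LPS library. Without LPS the mean level was 27.1 ± 24.8 CPM in the tdT- and 1.02 ± 1.65 CPM in the tdT+ population, and with LPS it was 35.7 ± 10.9 and 5.48 ± 2.78 CPM (SD, n = 5).

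Ly6c2 has a close neighbor, Ly6c1 (chromosome 15, 75044018 to 75048830), whose coding sequence of 393 bases is 97.7% identical to that of Ly6c2 in GENCODE M21, with 9 mismatches and no gap. Of the 344 stretches of 50 bases in the Ly6c2 coding sequence, 162 (47.1%) also occur in that of Ly6c1, so that a read confined to these stretches matches both genes. The 60 coding bases that differ most, bases 6 to 65, are shown for both genes with the 6 differing bases in capitals.
Ly6c2: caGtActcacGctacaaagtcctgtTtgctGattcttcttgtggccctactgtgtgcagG
Ly6c1: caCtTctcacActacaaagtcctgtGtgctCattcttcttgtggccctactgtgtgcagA
Ly6c1 gave 0, 232, 0, 0 and 1 counts in tdT- CTL libraries and no count in any tdT+ CTL library. After LPS it gave 208, 231, 415, 578 and 462 counts in tdT- and 268, 304, 405, 501 and 590 counts in tdT+ libraries. The copies therefore differed in pattern: in every tdT+ LPS library Ly6c1 exceeded Ly6c2. Summed over both copies, the tdT- level was 32.2 ± 32.6 CPM without and 64.2 ± 11.3 CPM with LPS, and the tdT+ level 1.02 ± 1.65 and 34.7 ± 9.73 CPM (SD, n = 5).

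Cd44 (chromosome 2, 102811141 to 102901665), the surface receptor for hyaluronan, was present in all libraries. Its level was 294, 89.7, 113, 10.5 and 120 CPM in tdT- CTL and 33.6, 47.4, 28.7, 55.1 and 60.9 CPM in tdT+ CTL libraries. In mouse 178 alone the tdT- library was below the tdT+ library. After LPS the level was 414, 324, 322, 341 and 209 CPM in tdT- and 314, 352, 436, 335 and 407 CPM in tdT+ libraries. All tdT+ LPS libraries lay above all tdT+ CTL libraries, whereas in tdT- dCAMs the CTL library of mouse 174 was higher than the LPS library of mouse 61.

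Fxyd5 (chromosome 7, 31032722 to 31042481) encodes dysadherin, a small membrane protein that modulates the sodium pump and cell adhesion. It stood at 1210, 441, 881, 865 and 791 CPM in tdT- CTL and at 325, 327, 317, 289 and 237 CPM in tdT+ CTL libraries. In LPS mice it stood at 550, 380, 292, 523 and 291 CPM in tdT- and 385, 290, 249, 374 and 229 CPM in tdT+ libraries. Fxyd5 had its highest mean in tdT- CTL libraries, which of the other members Napsa alone shared. The remaining 3 groups of Fxyd5 overlapped, and its tdT- CTL libraries overlapped the tdT- LPS ones.

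Vcan (chromosome 13, 89655312 to 89742509), which encodes the matrix proteoglycan versican, was nearly absent without LPS. It gave 0, 0, 10, 1 and 1 counts in tdT- CTL libraries and no count in any of the 5 tdT+ CTL libraries. After LPS it gave 633, 294, 875, 397 and 350 counts in tdT- and 399, 281, 467, 275 and 273 counts in tdT+ libraries. The lowest LPS library held 273 counts and the highest CTL library 10. A count of 0 allows up to 3 counts per library, which in the tdT+ CTL libraries is a mean of 0.339 CPM.

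Fn1 (chromosome 1, 71585520 to 71653200), which encodes the matrix protein fibronectin, gave 52, 262, 30, 1 and 1 counts in tdT- CTL and 0, 6, 24, 41 and 1 counts in tdT+ CTL libraries. After LPS it gave 1789, 402, 1073, 220 and 92 counts in tdT- and 63, 305, 448, 176 and 399 counts in tdT+ libraries. Levels spread widely within each group: the coefficient of variation over 5 libraries was 148% (tdT-) and 122% (tdT+) in CTL mice, and 97.0% (tdT-) and 53.1% (tdT+) in LPS mice.

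Chil3 (chromosome 3, 106147554 to 106167564) encodes Ym1, a secreted chitinase-like lectin. It gave 1, 0, 281, 42 and 0 counts in tdT- CTL and 0, 1, 0, 0 and 3 counts in tdT+ CTL libraries. After LPS it gave 774, 78, 90, 52 and 0 counts in tdT- and 0, 22, 7, 21 and 33 counts in tdT+ libraries. Single libraries set the means, since mouse 177 held 281 of the counts in tdT- CTL and mouse 54 held 774 in tdT- LPS libraries. Chil4, whose coding sequence is 94.4% identical to that of Chil3, gave 1 count in a single tdT- LPS library and none elsewhere.

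Plac8 (chromosome 5, 100553725 to 100572245), a small cysteine-rich protein abundant in monocytes and plasmacytoid dendritic cells, was present in all tdT- CTL libraries and near 0 in the tdT+ ones. It gave 2485, 423, 261, 162 and 165 counts in tdT- CTL libraries, and in the tdT+ libraries of these mice 0, 0, 0, 12 and 0. After LPS it gave 4301, 1116, 1529, 1977 and 950 counts in tdT- and 747, 494, 626, 812 and 1240 counts in tdT+ libraries. The tdT+ LPS libraries thus reached 40.8 to 70.4 CPM, within the 18.3 to 377 CPM of tdT- CTL libraries.

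Samsn1 (chromosome 16, 75858793 to 76022281) encodes an adaptor protein with SH3 and SAM domains that is expressed in blood cells. It stood at 107, 200, 158, 180 and 31.9 CPM in tdT- CTL and at 16.4, 10.5, 19.7, 22 and 1.99 CPM in tdT+ CTL libraries. After LPS it stood at 451, 433, 380, 409 and 578 CPM in tdT- and at 437, 334, 406, 360 and 666 CPM in tdT+ libraries. The populations did not overlap in CTL mice and occupied the same range in LPS mice. Mouse 179 was lowest in both CTL groups and mouse 61 highest in both LPS groups.

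Napsa (chromosome 7, 44572380 to 44586862) encodes the aspartic protease napsin A. It gave 1471, 236, 505, 920 and 1083 counts in tdT- CTL and 0, 0, 20, 47 and 0 counts in tdT+ CTL libraries. After LPS it gave 985, 397, 458, 319 and 377 counts in tdT- and 47, 74, 42, 28 and 38 counts in tdT+ libraries. Like Plac8, Napsa had a gap between the populations in both treatments, and it gave at most 74 counts in any tdT+ library.

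Levels of different genes were compared per length, as CPM per kb of summed exons in GENCODE M21, which understates genes whose long isoforms are not used. In tdT- CTL libraries the order was Fxyd5 (200 ± 65.6 CPM per kb), Plac8 (62.2 ± 97.8), Napsa (41.9 ± 28.6), Samsn1 (27.5 ± 13.7), Cd44 (18.5 ± 15.3), Ly6c2 (9.88 ± 9.06), Chil3 (4.83 ± 9.20), Fn1 (0.695 ± 1.03) and Vcan (0.0203 ± 0.0363). Apart from Fxyd5, neighbors in this order lay within the spread of each other. In tdT+ LPS libraries Samsn1 came first at 89.3 ± 26.8 CPM per kb, followed by Fxyd5 (72.8 ± 17.0), Cd44 (54.4 ± 7.54) and Plac8 (34.5 ± 7.97), all far above Ly6c2 (2.00 ± 1.01), Vcan (1.70 ± 0.473), Fn1 (1.67 ± 0.886), Napsa (1.27 ± 0.611) and Chil3 (0.713 ± 0.528).

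Levels without LPS in dCAMs labeled through Ccr2 at the time of tamoxifen were read from tdT+ against tdT- libraries of CTL mice. Cells that expressed Ccr2 only later are tdT-, so that this does not separate cells with and without a Ccr2 history. Ccr2 itself was at 615 CPM in tdT- and 277 CPM in tdT+ CTL libraries. Plac8, Samsn1, Napsa and Fxyd5 were lower in tdT+ dCAMs in 5 of 5 mice and without overlap between the groups. A gene was called if its edgeR quasi-likelihood test had a Benjamini-Hochberg adjusted p under 0.05 and its log2 fold change was over 1 in size. By this rule 5 of the 9 genes were called lower and 0 higher, against 1.27% and 3.01% of all genes tested. The 9 genes were chosen with earlier results of these data known, so that such shares, here and below, are descriptions only. Groups free of overlap, with tdT+ lower, were found for 4 of the 9 genes and for 1.42% of all genes. The fitted log2 fold change was -8.53 ± 1.27 for Plac8 (SE, adjusted p = 0.0004196), -3.26 ± 0.50 for Samsn1 (adjusted p = 0.0005366), -1.49 ± 0.25 for Fxyd5 (adjusted p = 0.001188) and -6.25 ± 1.21 for Napsa (adjusted p = 0.003658). The Plac8 value rested on the 12 counts of mouse 178, without which every tdT+ CTL library was at 0 and the fitted value was -13.32 and depended on the prior count. The call for Vcan (adjusted p = 0.04374) concerned 10 counts in a single library, was lost in 15 of 20 alternatives, and allows no fold.

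The remaining 4 genes had negative estimates that did not pass. Ly6c2 had a log2 fold change of -4.73 ± 1.51 (adjusted p = 0.07647) and was lower in tdT+ in 3 of 5 mice, being at 0 in both libraries of mouse 178. It was called without mouse 177 (-6.37, adjusted p = 0.04487) or 178 (-4.72, adjusted p = 0.04676). Chil3 was at the floor in all 5 tdT+ CTL libraries. The mean of its tdT- CTL libraries was 23.2-fold that floor (adjusted p = 0.08638) and rested on mice 177 and 178, and the groups overlapped. Cd44 had -1.47 ± 0.48 (adjusted p = 0.08217), which was called without mouse 178 (-1.75, adjusted p = 0.004378) and was -0.80 without mouse 174 (adjusted p = 0.3046). Fn1 had -2.37 ± 1.27 (adjusted p = 0.2685), which was -0.58 without mouse 175 (adjusted p = 0.8672) and -3.50 without mouse 178 (adjusted p = 0.1529). The median over the 9 genes was -4.73, or -3.26 with genes at the floor set to their bound, against -0.01 over all genes.

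The CTL calls were not made on the CTL libraries by themselves. Fitted on these 10 libraries alone, edgeR called 0 of the 9 genes (adjusted p from 0.08747 to 0.6462) and 7 genes in all. Of the 9, 7 had an unadjusted p under 0.05. DESeq2 on all libraries called 8 of the 9, which was not set against its share of all genes called.

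Markers of other cells also differed between these libraries. The 7 genes of a dendritic cell list summed to 767 to 3350 CPM in tdT- CTL and 222 to 401 CPM in tdT+ CTL libraries, with mouse 174 highest, the mouse that was also highest for Plac8, Fxyd5, Napsa and Cd44. Of that list, Cd209a, a lectin of monocyte-derived and conventional dendritic cells, was called lower in tdT+ (1230 against 44.2 CPM, log2 fold change -4.80 ± 0.81, adjusted p = 0.001293), while Xcr1 and Clec9a, which define cross-presenting dendritic cells, were at the floor in all tdT- CTL libraries. Xcr1 was at the floor in all tdT+ CTL libraries as well, whereas Clec9a was not. Siglech, a marker of plasmacytoid dendritic cells in the same list, lay the other way, at 55.7 ± 57.1 CPM in tdT- and 261 ± 59.2 CPM in tdT+ CTL libraries, and did not pass (2.22 ± 0.73, adjusted p = 0.0828). The 10 border macrophage markers summed to 7700 to 15100 CPM in tdT- CTL and 19000 to 19600 CPM in tdT+ CTL libraries. The part of these cells in the differences was not tested. Without mouse 174, Plac8 kept its call (-6.55, adjusted p = 0.0009804), as did Napsa, Samsn1 and Fxyd5. The dendritic cell sums of the remaining tdT- CTL libraries were 767 to 1290 CPM, still above all tdT+ CTL libraries. Leaving out mouse 174 therefore does not test the part of these cells.

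**Figure D2:**
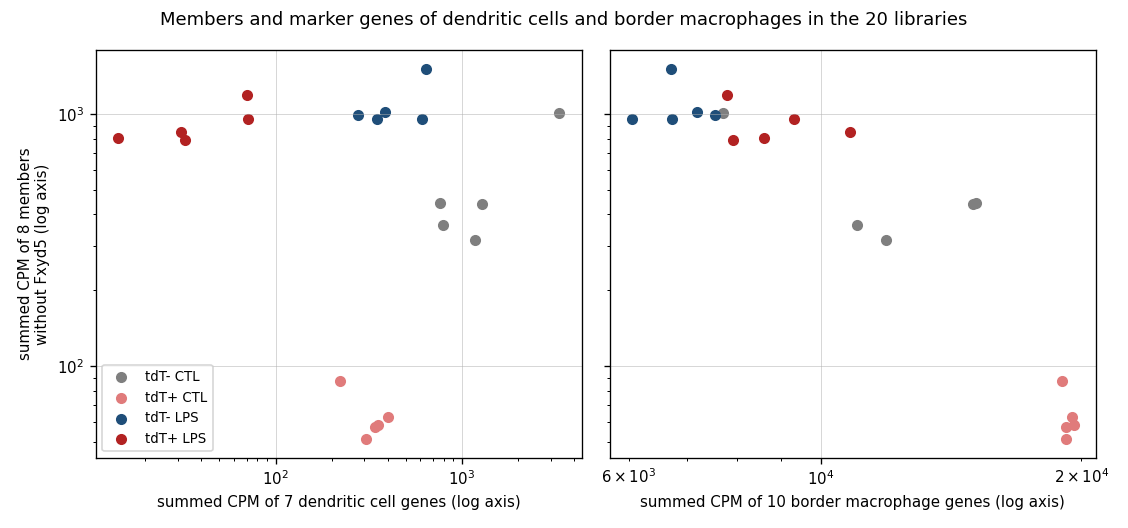
Summed CPM of the 8 members other than Fxyd5 (vertical, log axis) against the summed CPM of 7 dendritic cell genes (left) and 10 border macrophage genes (right, log axes), 1 point per library. The tdT+ CTL libraries have 51.3 to 87.6 CPM of the members and the highest border macrophage sums, and the tdT+ LPS libraries have high member sums at the lowest dendritic cell sums.

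The response of these genes to endotoxin was then examined within each population. In tdT+ dCAMs, Plac8, Vcan, Samsn1 and Cd44 rose after LPS, and the fitted change was positive for all 9 genes. By the same rule 4 of the 9 genes were called higher and 0 lower, against 3.37% and 2.52% of all genes, and 5 of the 9 were free of overlap with LPS higher, against 10.6% of all genes. Among the surface genes, Cd44 rose from 45.2 ± 13.8 to 369 ± 51.1 CPM, a log2 fold change of 3.03 ± 0.51 (adjusted p = 0.0003649), Ly6c2 was at 1.02 and 5.48 CPM without passing (2.43 ± 1.37, adjusted p = 0.3553), and Fxyd5 was at 299 and 305 CPM (0.03 ± 0.24, adjusted p = 1.0). Ly6c2 was called with voom and quality weights (4.07, adjusted p = 0.01131). The sign of the Fxyd5 estimate turned under other scalings.

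Of the matrix and secreted genes, Vcan rose from no count to 24.6 ± 6.84 CPM, at least 72.5-fold higher against a floor of 3 counts per library (adjusted p = 5.953e-05). Fn1 was higher in all tdT+ LPS than in all tdT+ CTL libraries, at 19.5 ± 10.4 against 1.56 ± 1.90 CPM, and did not pass (3.64 ± 1.33, adjusted p = 0.1239). It stayed uncalled in 15 of 19 alternatives. It was called with DESeq2 (adjusted p = 0.01586), voom and quality weights (0.04921), only the 10 libraries compared (0.02677) and the estimated-correlation mouse block in voom (0.02565). For Chil3 the mean after LPS was 3.42-fold the floor of the tdT+ CTL libraries. The groups overlapped and the change did not pass (adjusted p = 0.2919).

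Of the intracellular genes, Plac8 rose from 0.251 ± 0.562 to 54.9 ± 12.7 CPM (7.68 ± 1.23, adjusted p = 0.0002334). Without CTL mouse 178, whose tdT+ library held the only 12 counts of that group, the fitted value was 12.31 and depended on the prior count. Samsn1 rose from 14.1 ± 8.04 to 440 ± 132 CPM (4.96 ± 0.54, adjusted p = 1.874e-06), and Napsa was at 1.45 and 3.38 CPM (1.21 ± 1.0, adjusted p = 0.595). The 4 calls were made under all 19 alternatives. The median over the 9 genes was 3.64, or 3.03 with genes at the floor set to their bound, against 0.01 over all genes. The dendritic cell list summed to 222 to 401 CPM before and 14.2 to 71.3 CPM after LPS in these libraries, and most of the CTL sum was Siglech, which fell from 261 to 16.2 CPM (-4.01 ± 0.78, adjusted p = 0.001912). Flt3, Xcr1 and Clec9a were at the floor in all tdT+ LPS libraries, as Xcr1 had been in CTL mice. The border macrophage markers summed to 19000 to 19600 CPM before and 7780 to 10800 CPM after LPS, with 5 of the 10 called lower and 0 higher. The neutrophil list reached 309 to 784 CPM after LPS against 404 to 588 CPM before, its genes S100a8 and Mmp8 rose, and the defining markers Ly6g and Cxcr2 were at the floor in all tdT+ libraries. Their part in the values was not tested.

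In tdT- dCAMs, Vcan and Samsn1 rose after LPS and Fxyd5 fell. Of the 9 genes 2 were called higher and 1 lower, against 7.2% and 4.27% of all genes, and 2 were free of overlap with LPS higher, against 9.32%. Vcan rose from 0.294 ± 0.525 to 36.2 ± 12.8 CPM (6.88 ± 1.12, adjusted p = 0.0004982), and without CTL mouse 177, which held the 10 counts, the fitted value was 8.96. Samsn1 rose from 136 ± 67.6 to 450 ± 76.1 CPM (1.73 ± 0.47, adjusted p = 0.01731). Fxyd5 fell from 838 ± 275 to 407 ± 124 CPM (-1.04 ± 0.25, adjusted p = 0.007023), with overlap between the groups, and its call was lost in 7 of 19 alternatives, among them those without CTL mouse 174 (-0.89) or 178 (-0.99) and LPS mouse 59 or 61 (-0.94 each).

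Of the 6 genes not called, Cd44 came nearest (126 ± 104 to 322 ± 73.5 CPM, 1.36 ± 0.48, adjusted p = 0.06607) and was called without CTL mouse 174 (1.92, adjusted p = 0.007096) or 178 (1.12, adjusted p = 0.02544). Cd44 was also called with DESeq2 (adjusted p = 0.04803), voom and quality weights (0.02689) and the estimated-correlation mouse block in voom (0.00438). Fn1 had 2.60 ± 1.27 (adjusted p = 0.1716) and Napsa -1.60 ± 0.98 (adjusted p = 0.2823). The estimates for Plac8 (0.54 ± 0.89, adjusted p = 0.7351), Ly6c2 (0.40 ± 1.28, adjusted p = 0.881) and Chil3 (0.83 ± 1.67, adjusted p = 0.7907) were smaller than their errors. The Plac8 value was set by CTL mouse 174, without which it was 2.25 (adjusted p = 0.06099). The median over the 9 genes was 0.83, against 0.02 over all genes. In the same libraries the dendritic cell list summed to 767 to 3350 CPM in CTL and 277 to 642 CPM in LPS mice, and Cd209a (-5.52, adjusted p = 0.0001188) and Siglech (-2.70, adjusted p = 0.0187) fell. Ccr7, the receptor of migrating dendritic cells, was at 46.3 ± 93.6 CPM in CTL and 401 ± 155 CPM in LPS mice and did not pass (3.11 ± 1.46, adjusted p = 0.1557). The border macrophage markers summed to 7700 to 15100 CPM in CTL and 6050 to 7550 CPM in LPS mice, with 6 of the 10 called lower and 0 higher. The neutrophil list summed to 99.0 to 466 CPM in CTL and 295 to 956 CPM in LPS mice, where mouse 54 was highest. Its genes S100a8 and Mmp8 rose, while Ly6g and Cxcr2 were at the floor in all tdT- CTL but not all tdT- LPS libraries. The part of these cells in the changes was not tested.

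**Figure D3:**
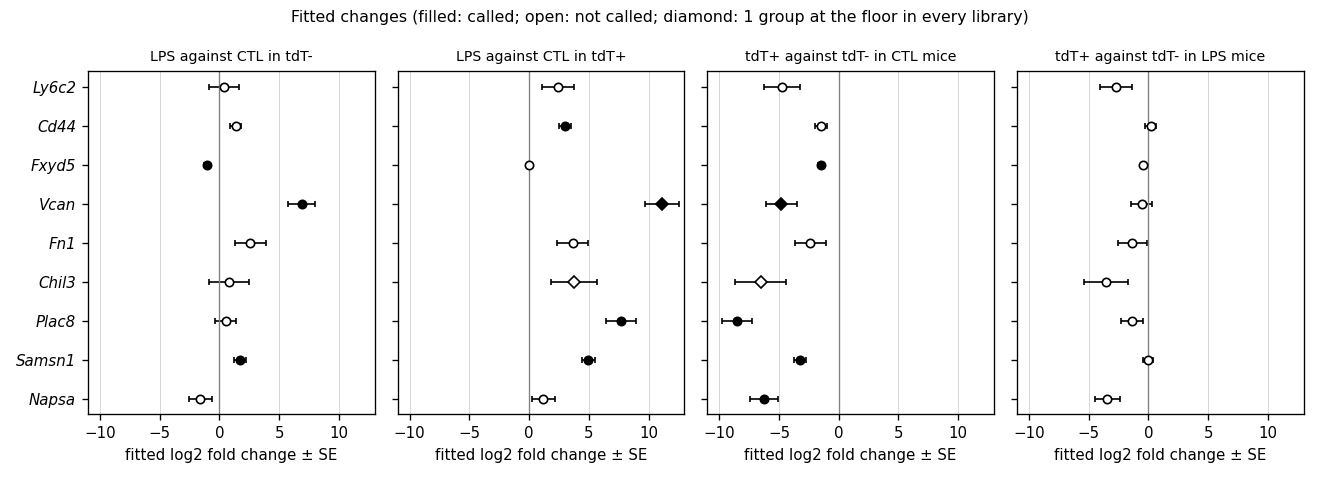
Fitted log2 fold change ± SE of each gene in the LPS comparisons (left panels) and the population comparisons (right panels), from 5 libraries per group. Filled symbols passed the threshold, open ones did not, and diamonds mark genes with every library of a group at the floor, whose fitted value depends on the prior count. In tdT+ dCAMs 4 genes are filled to the right of 0, and in LPS mice no gene is filled.

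The 4 genes that rose in tdT+ dCAMs lie on 4 chromosomes. To show the DNA in front of them, the 250 bases before the RefSeq start (GRCm38.p6) are given for the 3 with the largest fitted changes. RefSeq starts were found for 7 of the 9 genes, and none was printed for Fn1 and Napsa. Capitals mark matches, on either strand, to 5 patterns of factors known in myeloid cells: the kB site (GGGA, any 4 bases, CC), the PU.1 site (GAGGAAGT), the C/EBP site (TTGC, any 2 bases, AA), the AP-1 site (TGANTCA) and the IRF site (GAAA, any 2 bases, GAAA).
Plac8, chr5:100572206-100572455, minus strand: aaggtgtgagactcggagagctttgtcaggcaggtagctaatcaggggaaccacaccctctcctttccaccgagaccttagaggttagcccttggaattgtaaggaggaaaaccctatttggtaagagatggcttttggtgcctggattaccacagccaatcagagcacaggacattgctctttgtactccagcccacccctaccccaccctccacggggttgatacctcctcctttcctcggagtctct
Vcan, chr13:89742513-89742762, minus strand: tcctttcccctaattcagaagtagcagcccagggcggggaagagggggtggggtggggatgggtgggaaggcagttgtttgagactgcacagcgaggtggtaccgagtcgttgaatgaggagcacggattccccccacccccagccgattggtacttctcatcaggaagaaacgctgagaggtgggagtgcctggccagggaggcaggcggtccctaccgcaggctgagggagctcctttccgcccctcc
Samsn1, chr16:75909267-75909516, minus strand: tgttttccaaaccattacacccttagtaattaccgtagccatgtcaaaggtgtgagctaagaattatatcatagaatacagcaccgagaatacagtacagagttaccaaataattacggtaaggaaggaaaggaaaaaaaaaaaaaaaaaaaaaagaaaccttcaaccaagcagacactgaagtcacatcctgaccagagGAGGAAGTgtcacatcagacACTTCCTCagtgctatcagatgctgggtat
The Samsn1 start lies within the longer GENCODE gene, and its window holds the PU.1 pattern at 50 and at 30 bases before the start, on opposite strands. The windows of Vcan and Cd44 hold none of the 5 patterns. Plac8 has 2 RefSeq starts, and the window of the upstream one, shown here, holds none, while that of the other holds the C/EBP pattern 12 bases before the start. Among the others, Ly6c2 holds the PU.1 pattern, and Chil3 and Fxyd5 the kB pattern. Of all 32851 windows of this length, 17.6% hold the kB, 2.44% the PU.1, 9.56% the C/EBP, 6.75% the AP-1 and 2.98% the IRF pattern. A match describes letters only.

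The LPS effect itself was compared between the populations. It was larger in tdT+ dCAMs for Plac8, by 7.14 ± 1.45 on the log2 scale (SE, adjusted p = 0.01389), and for Samsn1, by 3.23 ± 0.66 (adjusted p = 0.01445). These were 2 of the 9 genes called higher and 0 lower, against 0.0902% and 1.17% of all genes. For Plac8 the level went from 99.1 to 144 CPM in tdT- and from 0.251 to 54.9 CPM in tdT+ dCAMs, and for Samsn1 from 136 to 450 and from 14.1 to 440 CPM. Both genes were called lower in tdT+ dCAMs of CTL mice and neither was called between the populations of LPS mice. The size of the Plac8 difference moved with CTL mice, being 5.16 without mouse 174 (adjusted p = 0.02813) and 11.96 without mouse 178 (adjusted p = 0.0004244), where all tdT+ CTL libraries were at 0 and the value depended on the prior count. Its call was lost without LPS mouse 56, 59, 60 or 61 (6.88 to 7.13, adjusted p from 0.06504 to 0.06851) and the Samsn1 call without any of the 5 LPS mice (3.14 to 3.30, adjusted p from 0.0562 to 0.06885). With mouse as a replicate block through an estimated correlation in voom, Plac8 alone was called.

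The other 7 genes had positive differences that did not pass. Vcan had 4.23 ± 1.45 (adjusted p = 0.1981), which compares counts of 0 with counts of 0 to 10 at baseline, Fxyd5 1.07 ± 0.35 (adjusted p = 0.1656), Cd44 1.67 ± 0.67 (adjusted p = 0.2611) and Napsa 2.81 ± 1.4 (adjusted p = 0.4039). Fxyd5 was called without CTL mouse 175 (1.17, adjusted p = 0.03997) and Cd44 without CTL mouse 178 (1.97, adjusted p = 0.02327), while without CTL mouse 174 Cd44 had 1.0 (adjusted p = 0.5185).

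Finally, tdT+ and tdT- libraries of LPS mice were compared. edgeR called 0 of the 9 genes in this comparison, with 0.0301% of all genes called lower, and Napsa alone had an unadjusted p under 0.05. Ly6c2, Plac8 and Napsa were nevertheless lower in the tdT+ library of 5 of 5 mice and free of overlap, which held for 3 of the 9 genes and for 1.15% of all genes. Fxyd5 was lower in 5 of 5 mice as well. Within a mouse the tdT- level of Napsa exceeded the tdT+ level 19.5-, 4.85-, 9.63-, 11.9- and 14.2-fold, and that of Ly6c2 19.4-, 6.0-, 6.94-, 3.03- and 6.51-fold. For Plac8 the ratio was 5.35, 2.04, 2.16, 2.55 and 1.10. Mouse 54 had the largest ratio for all of these genes.

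The fitted log2 fold change was -3.44 ± 1.06 for Napsa (adjusted p = 0.9128), -2.70 ± 1.36 for Ly6c2 (adjusted p = 0.9191) and -1.39 ± 0.90 for Plac8 (adjusted p = 1.0). Napsa and Ly6c2 were called when only the 10 LPS libraries were fitted, where 39 genes were called in all. They were also called with voom and sample quality weights, which was not set against its share of all genes called, while DESeq2 called 0. By contrast Samsn1 (-0.03 ± 0.45), Cd44 (0.20 ± 0.47) and Vcan (-0.56 ± 0.86) had estimates below 1 in size, and their tdT+ and tdT- libraries overlapped. The median over the 9 genes was -1.34, against 0.00 over all genes. The dendritic cell list was again higher in tdT- libraries, at 277 to 642 against 14.2 to 71.3 CPM, and within it Ccr7 was at 401 ± 155 against 7.21 ± 6.26 CPM. This was not called, and its part in the values of Napsa, Ly6c2 and Plac8 was not tested. The tdT- library of mouse 54 was the highest of its group for 7 of the 9 genes and also for the dendritic cell and neutrophil lists.

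**Figure D4:**
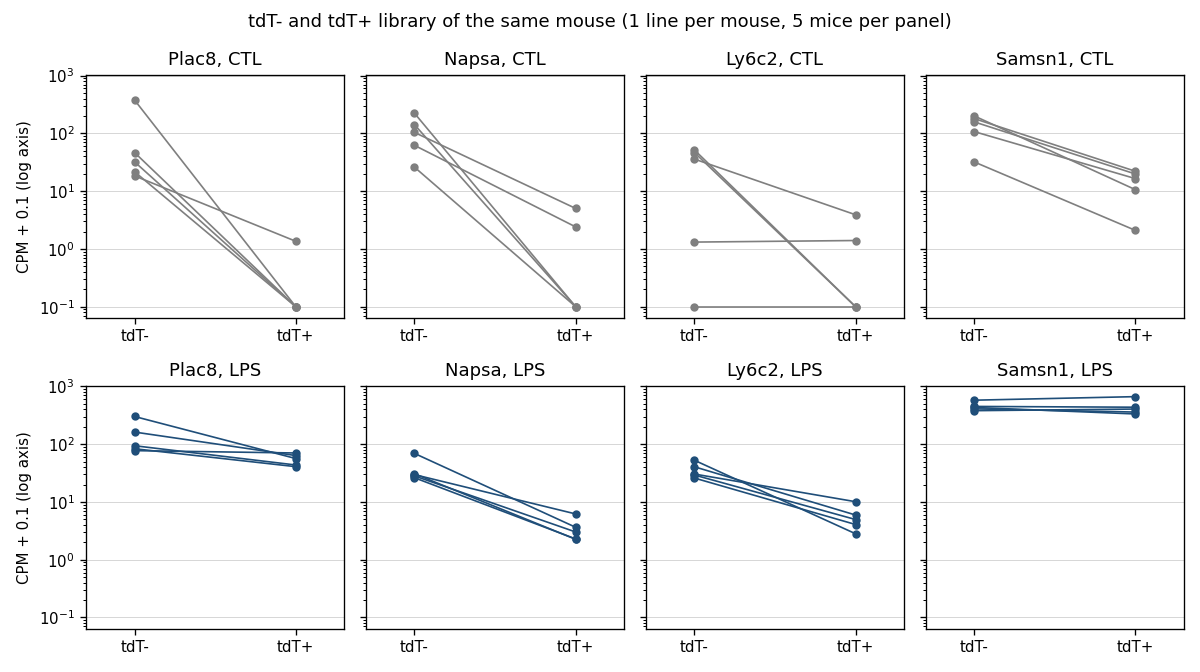
Level of Plac8, Napsa, Ly6c2 and Samsn1 in the tdT- and tdT+ library of the same mouse, as CPM + 0.1 on a log axis, with a line per mouse, for CTL (top) and LPS mice (bottom). All lines fall for Plac8 and Napsa in both treatments, and the Samsn1 lines fall in CTL mice and are level in LPS mice.

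Other genes of the monocyte program were read from a list of 14 further classical monocyte genes. In tdT- dCAMs 7 of the 14 were called higher and 1 lower after LPS, against 7.2% and 4.27% of all genes. In tdT+ dCAMs 8 were called higher and 2 lower, against 3.37% and 2.52% of all genes. Those with the smallest p were Hp (haptoglobin, 9.84 ± 1.34) and Ifitm3, an interferon-induced membrane protein (1.83 ± 0.28), in tdT- and Ifitm3 (2.41 ± 0.28) and Ms4a4c (3.61 ± 0.46) in tdT+ dCAMs. Ccr2, the chemokine receptor that directs monocytes out of the marrow, went the other way, from 615 ± 181 to 70.8 ± 14.1 CPM in tdT- (-3.12 ± 0.32, adjusted p = 9.011e-07) and from 277 ± 112 to 15.6 ± 5.96 CPM in tdT+ dCAMs (-4.15 ± 0.33, adjusted p = 2.775e-08). Lyz1 also fell in tdT+ dCAMs (-2.68 ± 0.70).

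Between the populations of CTL mice, 3 of the 14 were called lower in tdT+ dCAMs, namely Ccr2 (-1.15 ± 0.30), Ms4a4c (-1.95 ± 0.43) and Ly6c1. The only 1 called higher was F13a1 (1.19 ± 0.22), the A subunit of coagulation factor XIII. Of all genes, 1.27% were called lower and 3.01% higher. Ly6c1 was at the floor in all 5 tdT+ CTL libraries and above it in 1 of 5 tdT- CTL libraries. In LPS mice Ccr2 alone of the 14 was called (-2.18 ± 0.31, adjusted p = 0.005016), again lower in tdT+ dCAMs, against 0.0301% of all genes. Of 8 nonclassical monocyte genes 0 were called higher and 2 lower after LPS in each population. The shares of all genes were 7.2% and 4.27% in tdT- and 3.37% and 2.52% in tdT+ dCAMs. The fractalkine receptor gene Cx3cr1 fell in both, from 593 to 6.34 CPM in tdT- (-6.55 ± 0.90) and from 767 to 1.59 CPM in tdT+ dCAMs (-8.92 ± 1.0). Nr4a1, a nuclear receptor needed for nonclassical monocytes, fell in tdT- (-1.19 ± 0.30) and Adgre4, an adhesion receptor, in tdT+ dCAMs (-3.23 ± 0.76), the latter with a called difference of LPS effects (-4.14 ± 1.03, adjusted p = 0.04931).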

How the data were processed

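RNA of sorted dCAMs was sequenced in 20 libraries of 10 mice, made from low input by PCR and without molecular identifiers. Per the labels and the study's methods, the authors demultiplexed reads with bcl2fastq 2.20, aligned them with STAR 2.7.11a and assigned them to genes with featureCounts 2.0.6 (a later release is named in the methods). What the authors deposited are raw, unscaled counts for each gene symbol, with 1 column per library. The methods name 2 genome builds without saying which applies, so coordinates and exon lengths come from GRCm38 with GENCODE M21 and serve only to locate genes. Promoter sequences are RefSeq (GRCm38.p6).

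Labels gave the groups. A summed count of 10 was the minimum for a gene (16632 of 33243 passed). After TMM scaling, 1 joint model of 4 group means was fitted to all 20 libraries in edgeR 4.0.16 (quasi-likelihood, R 4.3.3). Calls needed a Benjamini-Hochberg adjusted p under 0.05 and a log2 fold change over 1 in size. Folds against a group with all libraries at or under 3 counts are bounds against 3 counts per library, and such limits cover counting error only. Alternatives were RLE scaling, DESeq2 1.42.0, voom with quality weights in limma 3.58.1, other filters, fewer libraries, the F or M of the sample title as a term, thinning to 6017650 counts, mouse as a replicate block, and leaving out each mouse. The libraries of a mouse pair by animal, since both were sorted from the same dura. Their deviations from the group means correlated across genes at r = 0.000914 to 0.0333 in CTL and 0.0471 to 0.119 in LPS mice. No 2 of the 190 pairs of libraries were identical. Separate mice are biological replicates, 5 per group.

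The genes named were the 9 members, the 2 genes most like each member (members under a mean log2 CPM of 2 left out), near copies of members, Ccr2, and genes of the monocyte lists called between populations, in the difference of LPS effects or with the 2 smallest p per direction after LPS. Genes of other marker lists are named beside results they moved with, after their values were seen. The members and all lists were chosen with earlier results of these data known. One gene of the further classical monocyte list is not reported here, and counts over that list leave it out.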

Additional observations from a re-analysis of the deposited data

Results flagged for a closer look

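In 34 combinations of gene and group with counts above the floor, the highest or lowest library was screened for a gap to the others that was large against the range of the 5 libraries. It was found in 7. The critical value of 0.71 is meant to flag about 1 in 20, or 1.7, for normally distributed values. CPM near 0 are skewed, and a group with counts in 1 library alone, such as Plac8 in tdT+ CTL, is always flagged. The 7 therefore do not show an excess over chance. In the tdT- CTL group these were Plac8 in mouse 174 (377 CPM), Vcan and Chil3 in mouse 177 (1.23 and 34.5 CPM) and Fn1 in mouse 175 (28.8 CPM). In the tdT- LPS group they were Chil3 and Napsa in mouse 54 (54.3 and 69.1 CPM). In the tdT+ CTL group it was Plac8 in mouse 178 (1.26 CPM), which rests on 12 counts. All 7 were the highest library of their group, and 6 of them were tdT- libraries.

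The effect of LPS differed between tdT+ and tdT- dCAMs, by the interaction contrast of edgeR, for Plac8 (7.14 on the log2 scale) and Samsn1 (3.23). The Plac8 value was 5.16 without CTL mouse 174 and 11.96 without CTL mouse 178. Its call was lost without LPS mouse 56, 59, 60 or 61, and the Samsn1 call without any of the 5 LPS mice.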

How the results depend on the processing

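Under the alternatives, 85 counts of called members stayed within 1.5 times the value reported and 12 did not. Except for the population fits on 10 libraries, these counts were not set against the share of all genes called. For tdT+ against tdT- in CTL mice the count of 5 became 8 with DESeq2, 2 with voom and quality weights and 0 with only the 10 libraries compared. For LPS mice the count of 0 became 2 with voom and quality weights and 2 with only the 10 libraries compared. For the difference of LPS effects the count of 2 became 1 with voom and quality weights, 1 with mouse as a replicate block through an estimated correlation, and 0 to 3 without single mice. With the block as a term in edgeR the counts were 4 in CTL mice, 0 in LPS mice and 2 for the difference, and with the estimated correlation 4 for LPS in tdT- and 5 in tdT+ dCAMs, Fn1 being called in both. Without single mice the count ranged from 2 to 3 for LPS in tdT-, from 4 to 4 for LPS in tdT+ and from 4 to 6 for CTL mice.

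Directions turned for estimates that were not called. Fxyd5 after LPS in tdT+ dCAMs was -0.0063 under RLE scaling, -0.0063 with DESeq2, -0.0063 with voom and quality weights, -0.034 with filterByExpr, -0.00096 with thinned counts and -0.078 to 0.12 without single mice. Samsn1 between populations of LPS mice was 0.042 with the estimated-correlation block and -0.12 to 0.039 without single mice. Without single mice Chil3 after LPS in tdT- dCAMs ranged from -0.91 (without LPS mouse 54) to 3.49, and the difference for Fn1 from -0.74 (without CTL mouse 175) to 2.18. Of the estimates for single genes, 833 kept their direction and side of the threshold, 40 lost a call, 23 gained one and 13 turned. The causes were not tested. The difference of LPS effects on 10 libraries, and mouse as an edgeR term for LPS against CTL, could not be fitted by construction. Vcan, Chil3 and Ly6c2 were at the floor in some CTL libraries, where 3 counts correspond to means of 0.377 CPM in tdT- and 0.339 CPM in tdT+ libraries. Ly6c2 gave 0 counts in the tdT- CTL library of mouse 178 (9495177 total counts) and 471 in that of mouse 175 (8357381). The part of depth in these values was not tested.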

Other observations

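For each member with enough counts, the genes most like it over the 20 libraries were sought by Pearson r of log2 CPM among up to 5823 genes whose mean log2 CPM was 4 or more. These libraries share treatment, depth and scaling, so that r is a description. Plac8 was most like Mcemp1, a membrane protein of myeloid cells, at r = 0.924, and Eif2s2, a subunit of a translation initiation factor, at 0.904. Cd44 was most like Anxa6 (0.92) and Emilin2 (0.908), and Samsn1 most like the actin-severing factor gene Cfl1 (0.917) and thioredoxin, Txn1 (0.905). Napsa was most like Tpt1 (0.903) and Bcl2a1d (0.883), and Fxyd5 most like Cops9 (0.945) and the ATP synthase subunit Atp5f1c (0.93). Fn1 came with Ciao2a (0.876) and Ifi205 (0.873), and Ly6c2, at lower values, with Pitpna (0.783) and Nmi (0.768). Vcan and Chil3, with mean log2 CPM of 1.4 and 0.0268, were under the minimum.

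Other marker lists were low or uneven. T and NK cell genes summed to at most 5.90 CPM in any library. Fibroblast genes reached 3790 CPM in the tdT- CTL library of mouse 179 against 327 CPM at most in tdT+ CTL libraries, and erythroid genes 765 CPM in the tdT- CTL library of mouse 178. B cell genes reached 114 CPM, mast cell genes 134 CPM and endothelial genes 61.4 CPM at most.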
